A study of Mus musculus with 6 samples.

Results

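The genes described here are 51 mouse genes of cholesterol and fatty acid metabolism, taken from a table of 22322 genes by a list of symbols. Finding them used no measured value, but the list was drawn up with earlier results of these data known. They comprise 15 enzymes of sterol synthesis, 4 genes of sterol sensing and the SREBP pathway, 2 cholesterol efflux transporters, 10 genes of fatty acid synthesis, elongation and desaturation, 8 genes of fatty acid oxidation, 7 nuclear receptors or coactivators, and 5 genes of lipid uptake, binding and storage. All 51 symbols were found in the table, and 50 had enough counts to be tested between diets. The exception was Pparg, the master regulator of fat cell formation, which had between 2 and 10 counts in each sample.

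RNA-seq was done on arcuate nucleus (ARC) tissue cut by laser capture microdissection (LCM) from brain sections of male mice. The mice received from 4 weeks of age, for 16 weeks, either a normal-chow diet (NCD) with 16.5% fat or a high-fat diet (HFD) with 60% fat, and 3 samples per diet were sequenced. The study located the captured area with a reporter for Kiss1 neurons. No treatment other than the diet was given in the labels, the sources do not tie a genotype to the sequenced mice, and they do not say whether a sample was 1 mouse or several, so that p-values measure only the spread between these samples.

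Total counts were 15925648, 9937632 and 6882449 in NCD1, NCD2 and NCD3, and 8024664, 10479778 and 5171381 in HFD1, HFD2 and HFD3. NCD1 was thus the deepest library and HFD3 the shallowest. Counts scaled to library size and normalized by the TMM method (CPM) are used below for differences between samples, and the deposited FPKM, which is also scaled by transcript length, for levels between genes. Markers of ARC neurons were present. Pomc, the precursor of melanocortins, ranged from 500 to 1209 CPM, Agrp from 27.2 to 87.3 CPM, and Ghrh from 26.2 to 79.2 CPM. Kiss1 was at 0 counts in NCD1 and HFD1, where 3 counts correspond to 0.188 and 0.374 CPM, and ranged from 2.07 to 7.90 CPM in the other samples.

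The brain makes its own cholesterol, because lipoproteins do not cross the blood-brain barrier, and oligodendrocytes and astrocytes are its main producers. When sterols are scarce in the endoplasmic reticulum, SCAP carries the SREBP proteins to the Golgi, where they are cleaved and go on to switch on genes of sterol and fatty acid synthesis, and INSIG1 holds the complex back when sterols are plentiful. LXR receptors (Nr1h2 and Nr1h3) respond to oxysterols and switch on efflux transporters, while PPAR receptors respond to fatty acids and switch on genes of fatty acid oxidation and uptake. Both families bind DNA together with RXR.

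The lipid genes were well expressed, with mean levels from 0.525 to 231 FPKM. Over the 6 samples, 46 of the 51 had a mean FPKM above 1, 34 above 10, 11 above 50 and 2 above 100, with a median of 17.3. Scd2, the main stearoyl-CoA desaturase of the brain, was the highest, at 231 ± 39.7 FPKM (SD, n = 6), and Fabp5, a carrier of fatty acids in the cytosol, followed at 133 ± 28.6. Msmo1, Elovl5 and Hmgcs1 came next at 87.2 ± 17.4, 84.0 ± 10.9 and 83.5 ± 24.2 FPKM, 3 levels that did not differ beyond their spread.

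The lowest levels belonged to the 3 PPAR receptors and to 2 enzymes. Lpl, the lipase that releases fatty acids from triglyceride, had 0.953 ± 0.422 FPKM, and Acacb, the acetyl-CoA carboxylase of the mitochondrial surface, had 0.847 ± 0.232. Ppard, Ppara and Pparg had 0.647 ± 0.279, 0.562 ± 0.269 and 0.525 ± 0.507 FPKM. These 5 neighbors in the order overlapped in their spread.

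**Figure D1:**
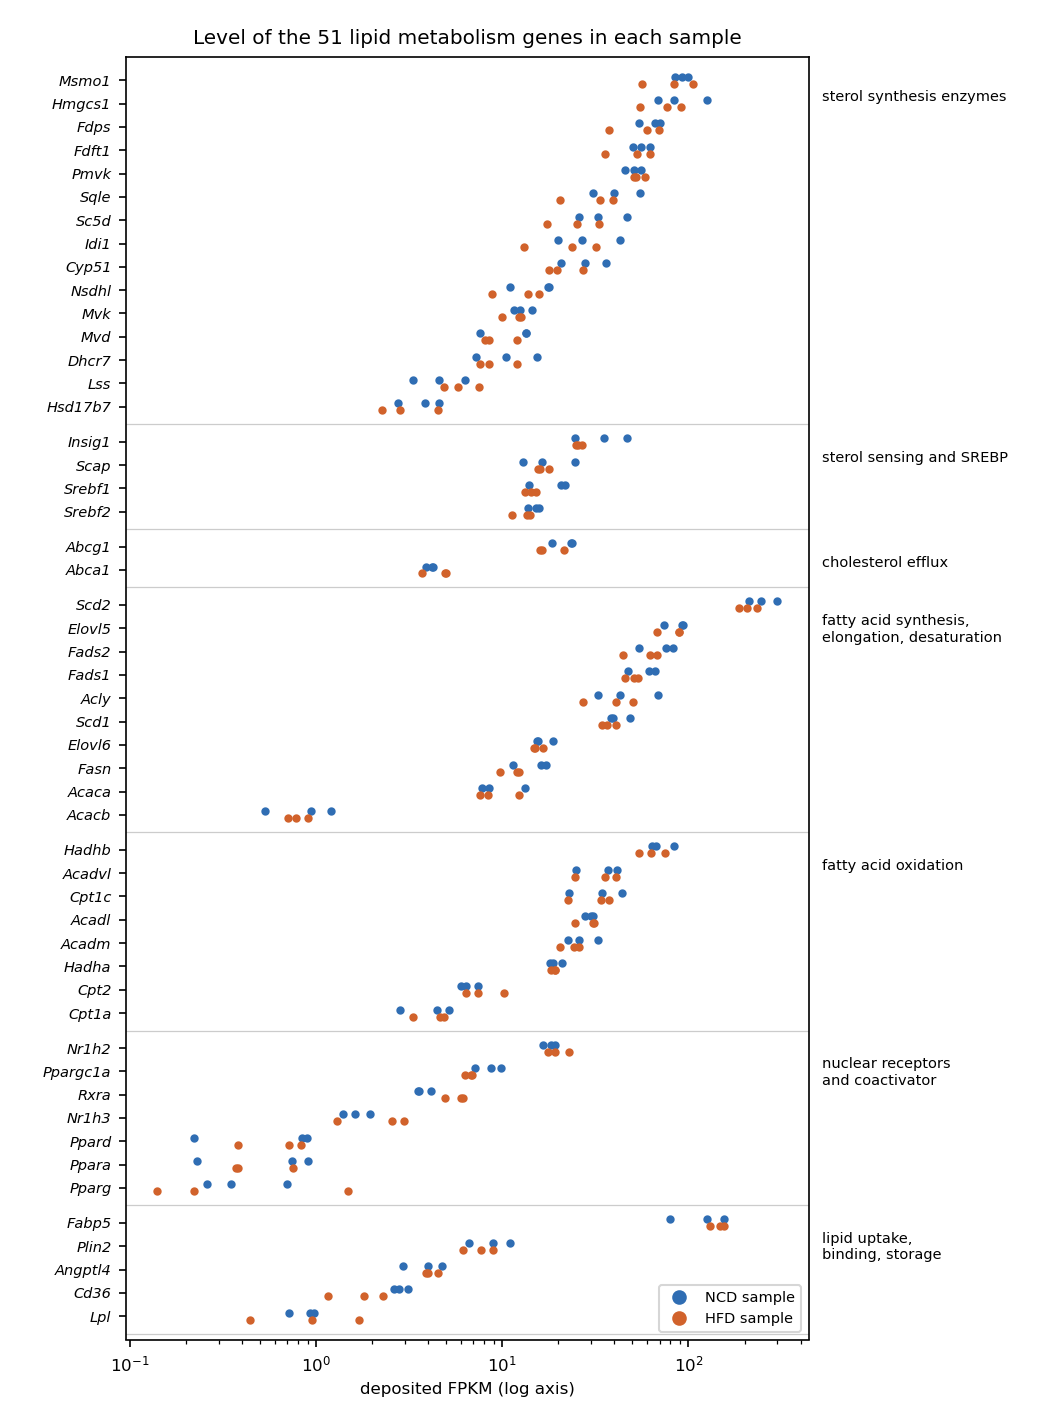
Deposited FPKM (x axis, log scale) of each of the 51 genes (y axis, grouped by role) in the 3 NCD samples (blue) and the 3 HFD samples (orange). Scd2 stands highest at a mean of 231 FPKM, the PPAR receptors lie below 1 on average, and the diets overlap for most genes.

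Ratios of FPKM were computed for 10 pairs of related enzymes and receptors. In all but 1 of them, the same gene was the higher in all 6 samples. The exception was Fads2 over Fads1, the desaturases of polyunsaturated fatty acids, with ratios from 1.14 to 1.27 in 5 samples and 0.973 in HFD3. FPKM of Scd2 was 5.08 to 7.61 times that of Scd1. The carnitine palmitoyltransferase Cpt1c, the neuronal form, was 6.80 to 8.56 times higher than Cpt1a, the form that controls entry of fatty acids into mitochondria. Acaca, the cytosolic acetyl-CoA carboxylase that starts fatty acid synthesis, was 7.02 to 17.3 times higher than Acacb, and Nr1h2 (LXR beta) was 6.88 to 14.9 times higher than Nr1h3 (LXR alpha). Srebf1 and Srebf2, the genes of the SREBP precursors, were close, with ratios from 1.01 to 1.38. With 3 samples against 3, a two-sided exact permutation test cannot give a p below 0.1, and no other test was run on these ratios.

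Across the 50 genes tested, most point estimates were lower on HFD, and the differences were small. The log2 fold change, HFD over NCD, was below 0 for 36 genes (72%) and above 0 for 14, whereas it was below 0 for 49.5% of all 14188 genes tested. The median was -0.15 for the lipid genes and 0.003 for all genes tested. Estimates ranged from -0.69 for Cd36 to 0.60 for Rxra, and 34 of 50 lay within 1 standard error of 0. Only Rxra passed the study's threshold of p under 0.05 and a fold change above 1.5, in edgeR's quasi-likelihood test, against 1.9% of all genes tested (1.01% higher and 0.888% lower on HFD). No lipid gene had an adjusted p under 0.05, which 0.0564% of all genes reached; 1 had an unadjusted p under 0.05, as did 2.3% of all genes (1.21% higher and 1.09% lower), and DESeq2 gave the same counts of 0 and 1. In 3 genes the diets did not overlap in CPM, against 6.47% of all genes tested (3.24% in each direction). Rxra was higher on HFD, and Acaca and Cd36 were lower. The counts of lipid genes past a threshold or without overlap were thus near the shares of all genes tested.

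The shift of the median depended on particular libraries. Without NCD1 and HFD3, the deepest and the shallowest, the median of the lipid genes was -0.02, with 24 genes above and 26 below 0. It was -0.06 without HFD3 alone and -0.24 without HFD2. The median of all genes tested was -0.004, -0.013 and -0.001 in these fits, in the same order. In tissue samples, fewer cells of a type and less RNA per cell cannot be told apart.

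**Figure D2:**
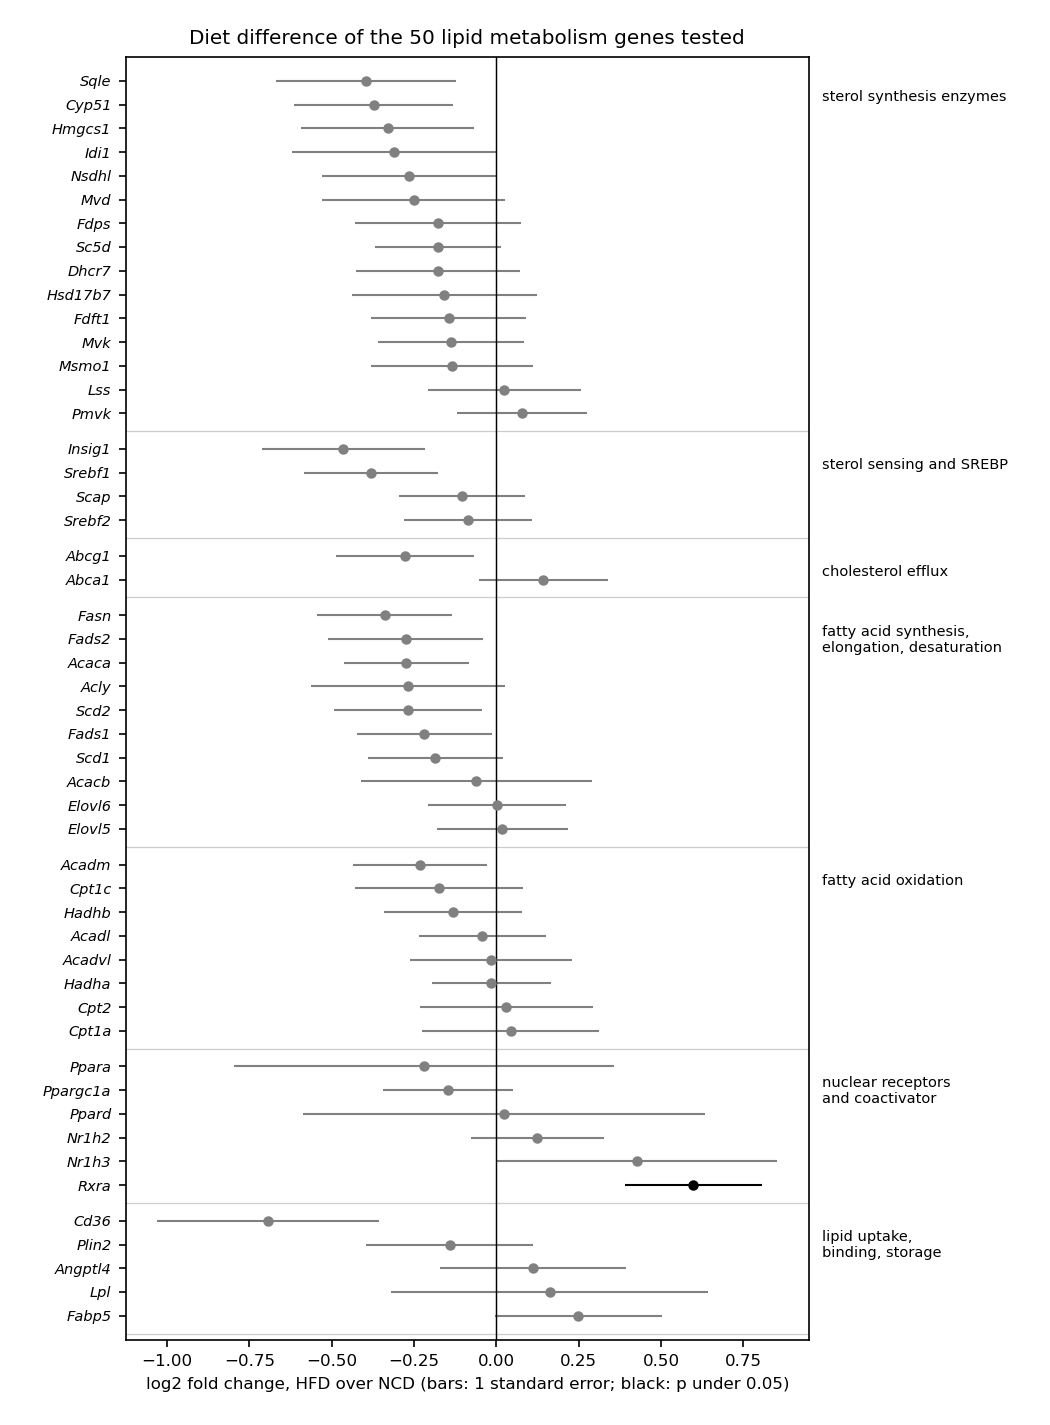
Log2 fold change, HFD over NCD (x axis), of the 50 genes tested, grouped by role and ordered within each role, with bars of 1 standard error from edgeR. Most points lie between -0.4 and 0.2, and Rxra at 0.60 (black) is the only gene with an unadjusted p under 0.05.

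The 15 sterol synthesis enzymes cover the route from HMG-CoA formation (Hmgcs1) through the mevalonate steps (Mvk, Pmvk, Mvd), isoprenoid formation (Idi1, Fdps) and squalene formation and oxidation (Fdft1, Sqle) to lanosterol (Lss) and the late steps (Cyp51, Msmo1, Nsdhl, Hsd17b7, Sc5d, Dhcr7). Of these, 13 had a log2 fold change below 0 and 2 above 0 (Pmvk and Lss), with a median of -0.18. None had an unadjusted p under 0.05, all 15 lay within 2 standard errors of 0, and in none did the diets separate. The estimates ran from -0.40 ± 0.27 (SE) for Sqle to 0.08 ± 0.20 for Pmvk.

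Msmo1, the methylsterol monooxygenase that removes methyl groups from lanosterol derivatives, had the highest FPKM in this role. It had 189.9, 171.8 and 192.6 CPM in NCD1, NCD2 and NCD3, and 169.7, 222.0 and 112.3 CPM in HFD1, HFD2 and HFD3. The highest and the lowest samples were both HFD, so the HFD samples spanned the whole NCD range. Its log2 fold change was -0.14 ± 0.25 (SE, adjusted p = 0.999, edgeR's quasi-likelihood test), and it was 0.08 without HFD3 and -0.39 without HFD2.

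The levels of the sterol enzymes varied together between samples. The mean deviation of their log2 CPM from each gene's mean over the 6 samples was 0.27, 0.15 and -0.11 in NCD1, NCD2 and NCD3, and -0.08, 0.21 and -0.46 in HFD1, HFD2 and HFD3. HFD1 and HFD2 thus lay among the NCD samples, and HFD3 lay lowest. HFD3 was the lowest of the 6 samples for 11 of the 15 enzymes, against 24.9% of all genes tested, and NCD1 was the highest for 7, against 26.7%.

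Over the 6 samples, the median correlation of log2 CPM between pairs of sterol enzymes was 0.70 (105 pairs, 96 above 0), and 0.65 after the mean of each diet was removed. The corresponding median over all pairs of genes tested was -0.0005. Values of this size were not particular to the sterol enzymes. Among sets of cell type markers, the median was 0.70 for oligodendrocytes (0.78 after the diet means were removed). It was 0.54 (0.75) for astrocytes and lower, at 0.18 (0.18), for ARC neurons. These pairs share the same 6 libraries, so the values are descriptive.

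The order of the samples in the sterol enzyme mean was the order of the library totals, from NCD1 through HFD2, NCD2, HFD1 and NCD3 to HFD3. For 4 single enzymes (Hmgcs1, Idi1, Sqle and Dhcr7) CPM followed that same order, as it did for 2.54% of all genes tested. With log2 total count added to the fit, the median of the 15 log2 fold changes was -0.02, and without NCD1 and HFD3 it was 0.05, with 10 of the 15 above 0. Markers of several cell types also differed between libraries. Astrocyte markers (7 genes) had mean deviations of -0.28 in NCD3 and -0.27 in HFD3 and between 0.05 and 0.26 elsewhere. Oligodendrocyte markers (8 genes) had -0.31 in HFD1 and -0.32 in HFD3 against 0.25 in HFD2, and 0.47 in NCD2 against -0.03 and -0.06 in NCD1 and NCD3. Summed over the set, astrocyte markers, led by Aldoc, had 3751, 4106 and 3505 CPM on NCD and 4402, 4150 and 3427 CPM on HFD, and oligodendrocyte markers, led by Mbp, had 3420, 4897 and 3405 CPM on NCD and 2940, 4522 and 3584 CPM on HFD. Below 0 in log2 fold change were 4 of 7 and 6 of 8 of them. At an unadjusted p under 0.05 in edgeR, the astrocyte marker Gfap was higher on HFD (0.88) and the oligodendrocyte marker Ugt8a lower (-0.80), each with an adjusted p of 0.999. Markers of ARC neurons (10 genes) were lowest in NCD1 and highest in HFD3, opposite to the sterol enzymes, with mean deviations of -0.58, 0.06 and 0.13 on NCD and -0.19, 0.04 and 0.55 on HFD. Their summed CPM, led by Cartpt in FPKM, was 1548, 2464 and 1706 on NCD and 2130, 2039 and 2376 on HFD, and 8 of 10 were above 0 in log2 fold change. Cartpt (0.75) and Tac2 (0.60) were higher on HFD at an unadjusted p under 0.05 in edgeR, each with an adjusted p of 0.999. Of the 5 markers of the pars tuberalis and pituitary, Gh and Prl were at 0 counts in every sample and 2 were tested. Their summed CPM was 10.8, 4.58 and 17.3 on NCD and 16.3, 11.1 and 54.4 on HFD, led by Cga, which had 48.0 CPM in HFD3 and 4.17 to 14.9 CPM elsewhere. The log2 fold change of Cga was 1.36, at an unadjusted p under 0.05 and an adjusted p of 0.999 in edgeR. None of these 4 sets followed the order of the sterol enzymes, and the part of depth or cell makeup in their pattern was not tested.

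**Figure D3:**
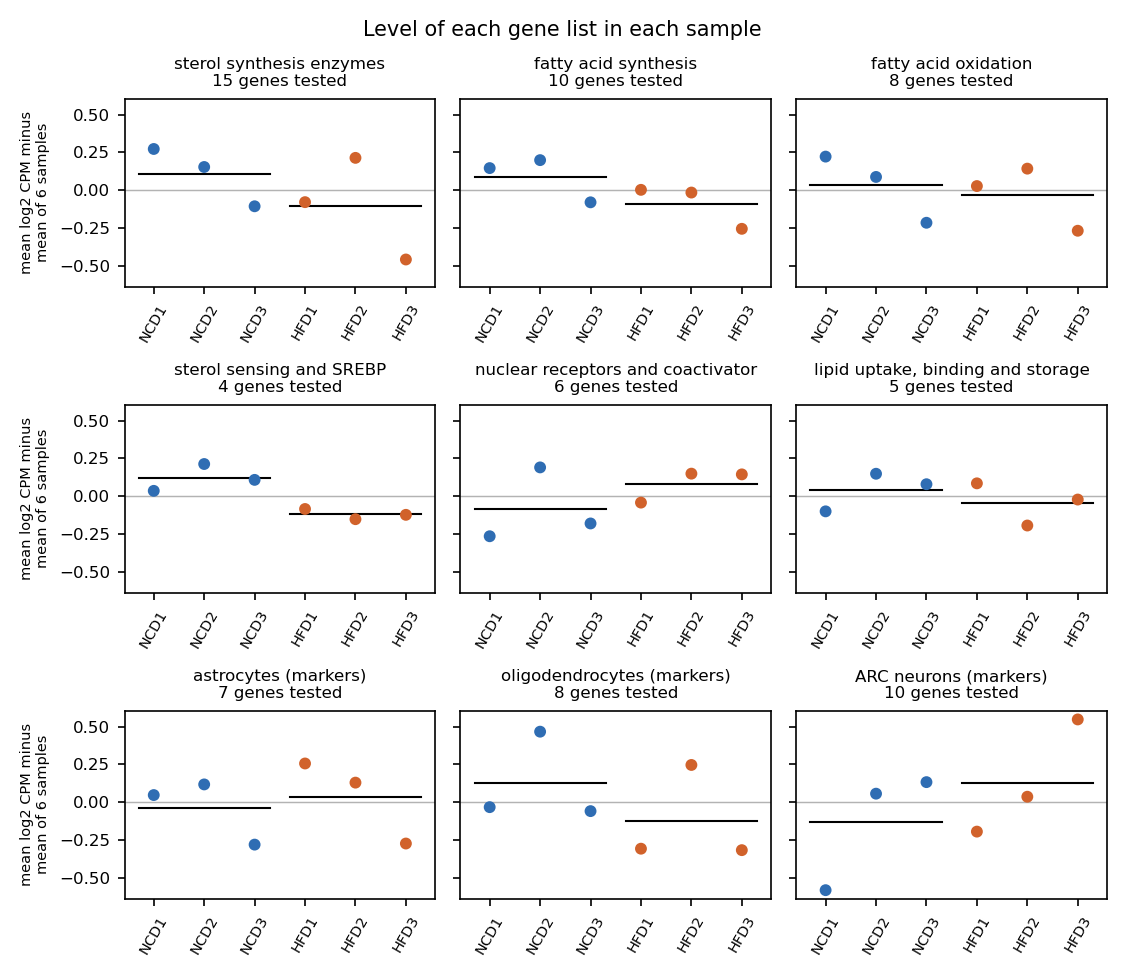
Mean deviation of log2 CPM from each gene's mean over the 6 samples (y axis) for 6 roles of the lipid genes and 3 sets of cell type markers, by sample (x axis, NCD blue, HFD orange), with black lines for the diet means. Sterol synthesis and fatty acid oxidation genes are lowest in HFD3 and highest in NCD1, whereas the mean of the 4 sterol sensing and SREBP genes is lower in all 3 HFD samples.

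The promoters of the sterol enzymes had a sequence feature in common that the choice of genes did not use. SREBP proteins bind sterol elements and act with NF-Y, which binds CCAAT, and with Sp1, which binds GGGCGG. RefSeq promoter windows (GRCm38.p6, 250 bases before to 50 after a start) were at hand for 41 of the 51 genes, 12 of them sterol enzymes. CCAAT, searched on both strands, was present in 12 of 12 sterol enzymes and in 13 of the other 29 lipid genes, and in 42.7% of 11048 tested genes that had a window. GGGCGG was present in 11 of 12, in 19 of 29 and in 67.6%.

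The sterol element core TCACNCCAC was found in 1 of the 41 genes, Hmgcs1, and in 1.38% of the tested genes. A stricter form of it, with C at the open base and an A in front and so always within a match of the first, was found in none. The stretches below show the sterol core of Hmgcs1 and then, for 5 sterol enzymes, the CCAAT nearest to the start, with the match in capitals. Where the match lies on the opposite strand to the gene, the capitals read ATTGG. They were picked to span the early, middle and late steps of the route.
Hmgcs1 sterol core, chr13:119690194-119690242, plus strand: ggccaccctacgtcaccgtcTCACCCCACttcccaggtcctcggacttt
Hmgcs1, chr13:119690286-119690330, plus strand: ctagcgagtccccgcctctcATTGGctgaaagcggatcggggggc
Mvd, chr8:122443425-122443469, minus strand: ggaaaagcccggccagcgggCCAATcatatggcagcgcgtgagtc
Idi1, chr13:8885572-8885605, plus strand: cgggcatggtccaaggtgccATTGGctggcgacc
Cyp51, chr5:4104702-4104746, minus strand: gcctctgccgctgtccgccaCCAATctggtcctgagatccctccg
Dhcr7, chr7:143830145-143830189, plus strand: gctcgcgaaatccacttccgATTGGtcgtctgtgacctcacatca

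In these windows the CCAAT match began 45 bases before the start in Hmgcs1, 27 in Mvd, 14 in Idi1, 29 in Cyp51 and 49 in Dhcr7. The RefSeq starts used for Idi1, Cyp51 and Dhcr7 lie inside the annotated genes, and so do the stretches shown for them. Their spans are chr13:8885501-8892451 (plus strand), chr5:4081145-4104746 (minus strand) and chr7:143823145-143848410 (plus strand). A match describes the letters and is not a measured binding site. The log2 fold changes of these 5 genes were -0.33, -0.25, -0.31, -0.37 and -0.18, each within 2 standard errors of 0. Among the 12 sterol enzymes with a CCAAT, Pmvk (0.08) and Lss (0.02) lay above 0 and the others below.

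All 4 genes of sterol sensing and the SREBP pathway had a log2 fold change below 0, with a median of -0.24, and none had an unadjusted p under 0.05. Their mean deviation of log2 CPM was 0.04, 0.21 and 0.11 in the NCD samples and -0.08, -0.15 and -0.12 in the HFD samples, so the diets did not overlap in the mean, although they overlapped for each gene. Markers of pericytes and smooth muscle (6 genes) separated the diets in the same direction, with mean deviations of 0.46, 0.18 and 0.02 on NCD and -0.48, -0.11 and -0.08 on HFD, and microglial markers (7 genes) in the other direction, with -0.05, 0.02 and -0.23 on NCD and 0.07, 0.11 and 0.08 on HFD. The part of these cells in the SREBP pathway genes was not tested. The median stayed between -0.36 and -0.19 under all alternatives run, including those that took the median of the sterol enzymes to near 0.

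Insig1 (chr5:28071363-28078662, plus strand, GRCm38), which retains the SREBP complex, had 63.3, 95.8 and 129.9 CPM in NCD1, NCD2 and NCD3, and 69.0, 74.5 and 65.1 CPM in HFD1, HFD2 and HFD3. NCD1 lay below all HFD samples while NCD2 and NCD3 lay above them, and the HFD samples were close together. The log2 fold change was -0.47 ± 0.25 (SE, adjusted p = 0.999, edgeR's quasi-likelihood test). Without NCD1 it was -0.71 (adjusted p = 0.9999, edgeR), and with log2 total count in the fit it was -0.59 (adjusted p = 0.988, edgeR), both past the study's threshold. Without NCD3 it was -0.19 and not past it.

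Srebf1, whose product favors genes of fatty acid synthesis, was singled out after its values were seen. It had 84.8, 85.6 and 59.7 CPM on NCD and 59.9, 56.5 and 60.6 CPM on HFD. NCD3 lay among the HFD samples and the other NCD samples stood above them. This gave a log2 fold change of -0.38 ± 0.20 (SE, adjusted p = 0.999, edgeR). Exons of Srebf1 overlap those of Rai1 on the opposite strand, and without strand their reads cannot be told apart. Srebf2, whose product favors sterol synthesis, and Scap, the escort protein, differed little, with log2 fold changes of -0.09 ± 0.19 and -0.11 ± 0.19.

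Of the cholesterol efflux genes, Abcg1, which passes cholesterol to lipoprotein particles, was the higher in FPKM. It had 130.9, 138.3 and 112.2 CPM on NCD and 95.5, 129.6 and 89.6 CPM on HFD. HFD2 lay within the NCD range and the other HFD samples below it, and the log2 fold change was -0.28 ± 0.21 (SE, adjusted p = 0.999, edgeR), or -0.46 without HFD2. Abca1, which loads cholesterol onto apolipoproteins, had an estimate of the other sign, 0.14 ± 0.20.

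Of the 10 genes of fatty acid synthesis, elongation and desaturation, 8 had a log2 fold change below 0 and 2 above 0, with a median of -0.24, and none had an unadjusted p under 0.05. The estimates ran from -0.34 ± 0.20 for Fasn, the fatty acid synthase, to 0.02 ± 0.20 for Elovl5, an elongase of polyunsaturated fatty acids. The mean deviation was 0.15, 0.20 and -0.08 in the NCD samples and 0.00, -0.01 and -0.25 in the HFD samples, so that NCD3 lay within the HFD range. Without NCD1 and HFD3 the median was -0.11, with 9 of 10 genes below 0.

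Acaca (chr11:84129672-84401651, plus strand) was the gene in this role whose diets did not overlap. It had 63.5, 53.5 and 52.2 CPM on NCD and 49.1, 44.7 and 46.5 CPM on HFD. All 3 HFD samples lay below all 3 NCD samples, with a gap smaller than the range within NCD. Its estimated log2 fold change was -0.27 ± 0.19 (SE, adjusted p = 0.999, edgeR). In the deposited FPKM the diets overlapped, at 13.3, 8.49 and 7.78 on NCD and 8.36, 7.64 and 12.3 on HFD, and limma on log2(FPKM + 1) gave -0.051.

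Scd2, the highest of all lipid genes in FPKM, had 1572, 1357 and 1201 CPM on NCD and 1268, 1165 and 995 CPM on HFD. The ranges overlapped, with NCD1 highest and HFD3 lowest, as for the sterol enzymes. Its log2 fold change was -0.27 ± 0.22 (SE, adjusted p = 0.999, edgeR). Scd1, Fads1 and Fads2, the other desaturases, had estimates of -0.19, -0.22 and -0.28.

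The 8 genes of fatty acid oxidation encode carnitine palmitoyltransferases (Cpt1a, Cpt1c, Cpt2), acyl-CoA dehydrogenases (Acadm, Acadl, Acadvl) and the trifunctional protein (Hadha, Hadhb). The dehydrogenases act on medium, long and very long chains. Their log2 fold changes lay between -0.23 and 0.04 with a median of -0.03, and none had an unadjusted p under 0.05. Hadhb, the thiolase subunit and the highest of the role in FPKM, had 160.3, 137.5 and 132.0 CPM on NCD and 127.4, 157.7 and 107.2 CPM on HFD. HFD2 lay within the NCD range and the others below it, and the log2 fold change was -0.13 ± 0.21 (SE, adjusted p = 0.999, edgeR).

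These genes followed the same samples as the sterol enzymes. Their mean deviation was 0.22, 0.09 and -0.21 on NCD and 0.03, 0.14 and -0.27 on HFD, again in the order of the library totals. The median correlation between pairs was 0.84 (28 pairs), and 0.87 with diet means removed. With log2 total count in the fit, the median log2 fold change was 0.09, and 6 of the 8 genes lay above 0.

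Among the nuclear receptors and their coactivator, Rxra (chr2:27676440-27762957, plus strand), the retinoid X receptor alpha and the common partner of LXR and PPAR, was higher on HFD. It had 19.6, 17.8 and 17.9 CPM in NCD1, NCD2 and NCD3, and 30.1, 25.0 and 28.8 CPM in HFD1, HFD2 and HFD3, from 119 to 325 counts per sample. All 3 HFD samples lay above all 3 NCD samples, by a gap larger than the range within either diet. The fold change was 1.51, at a log2 value of 0.60 ± 0.21 (SE, adjusted p = 0.999, edgeR's quasi-likelihood test).

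Because the fold change stood at the edge of the threshold of 1.5, the call of Rxra was lost when 1 of several libraries was left out, while the estimate moved little. It was 0.57 without NCD2, 0.58 without NCD3, 0.54 without HFD1 and 0.58 without HFD3. Of these, the fit without HFD1 had an unadjusted p above 0.05 in edgeR. The call was also lost with the replicate block plus log2 total count (0.55, unadjusted p above 0.05 in edgeR) and with limma on log2(FPKM + 1) (0.49). The other 2 RXR genes were not called. Rxrg, the highest RXR in FPKM, had a log2 fold change of -0.13 ± 0.25, and Rxrb 0.34 ± 0.25. FPKM of Rxrg was 6.31 ± 1.30 times that of Rxra on NCD and 4.01 ± 0.91 times on HFD (SD, n = 3 each, p = 0.2, two-sided exact permutation test).

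Markers of tanycytes, glial cells that line the floor of the ventricle, had a log2 fold change above 0 in 5 of 5 genes, with 2 at an unadjusted p under 0.05 in edgeR. Their mean deviations were -0.19, -0.63 and -0.01 on NCD and 0.39, -0.38 and 0.82 on HFD, so that HFD2 lay among the NCD samples. Summed CPM of this set, led by Vim in FPKM, was 144, 117 and 180 on NCD and 218, 134 and 339 on HFD. In their mean deviation, the microglial markers given above were, like Rxra, higher in all 3 HFD samples than in any NCD sample. The part of either cell type in the level of Rxra was not tested.

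Nr1h2 was the highest receptor of the list in FPKM. It had 33.7, 37.1 and 31.0 CPM on NCD and 35.2, 42.3 and 33.3 CPM on HFD. The ranges overlapped, and the log2 fold change was 0.12 ± 0.20 (SE, adjusted p = 0.999, edgeR), or 0.012 without HFD2. Nr1h3, Ppara and Ppard were too low for a small change to be detected, with standard errors of 0.43, 0.58 and 0.61 on the log2 scale. Ppargc1a, the coactivator of mitochondrial genes, had an estimate of -0.15 ± 0.20. Direct repeats of AGGTCA spaced by 1 base, the DR1 element of PPAR with RXR, or by 4 bases, the DR4 element of LXR with RXR, were found in none of the 41 promoter windows, and in 0.0362% and 0% of those of the tested genes. CACGTG, which SREBP1 also binds, was found in 8 of 41 and in 11.3%.

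Among the genes of lipid uptake, binding and storage, Cd36 (chr5:17781690-17888801, minus strand), a receptor that takes up long-chain fatty acids, had the lowest log2 fold change of the 50 genes. It had 8.01, 7.84 and 7.67 CPM on NCD and 6.21, 5.13 and 3.01 CPM on HFD, from 133 counts in NCD1 to 16 in HFD3. The NCD samples were close together, and all HFD samples lay below them and apart from one another. Its estimated log2 fold change was -0.69 ± 0.34 (SE, adjusted p = 0.999, edgeR), and without HFD1 it was -0.92 (adjusted p = 0.9997, edgeR), past the study's threshold, whereas without HFD3, the sample with 16 counts, it was -0.47.

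Cd36 is also found on microvessel cells, microglia and fat cells. The endothelial markers (7 genes) had mean deviations of -0.04, 0.02 and -0.16 on NCD and -0.09, 0.10 and 0.17 on HFD, 4 of them above 0 in log2 fold change and 3 below, and their most abundant gene in FPKM was Ly6c1. Within that set Cldn5 was lower on HFD (log2 fold change -0.48) and Ly6c1 higher (0.81), each with an unadjusted p under 0.05 and an adjusted p of 0.999 in edgeR. Summed CPM of the set was 196, 200 and 169 on NCD and 201, 207 and 202 on HFD. Microglial markers had summed CPM of 281, 287 and 232 on NCD and 309, 306 and 309 on HFD, led by C1qb. Of these, C1qa and C1qb were higher on HFD at an unadjusted p under 0.05 in edgeR, with log2 fold changes of 0.46 and 0.44 and an adjusted p of 0.999 each.

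Markers of pericytes and smooth muscle (6 genes, led by Rgs5) had log2 fold changes below 0 in 6 of 6, with Acta2 and Tagln at an unadjusted p under 0.05 in edgeR. Their summed CPM was 214, 186 and 158 on NCD and 169, 185 and 156 on HFD. The part of these vessel and immune cells in the level of Cd36 was not tested. Fat cell markers were at or near 0: Lep had no count in any sample, and Adipoq, Plin1 and Cidec reached at most 0.204, 0.713 and 0.451 CPM.

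Fabp5 had 75.5, 126.2 and 159.3 CPM on NCD and 146.2, 133.9 and 148.3 CPM on HFD. NCD1 lay far below the other samples, and the HFD samples lay between NCD2 and NCD3. This gave a log2 fold change of 0.25 ± 0.25 (SE, adjusted p = 0.999, edgeR), and -0.01 without NCD1. Fabp5 has near-identical copies in the genome, which makes its counts less certain. Plin2, the coat protein of lipid droplets, Angptl4, an inhibitor of LPL, and Lpl had estimates of -0.14 ± 0.25, 0.11 ± 0.28 and 0.16 ± 0.48.

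**Figure D4:**
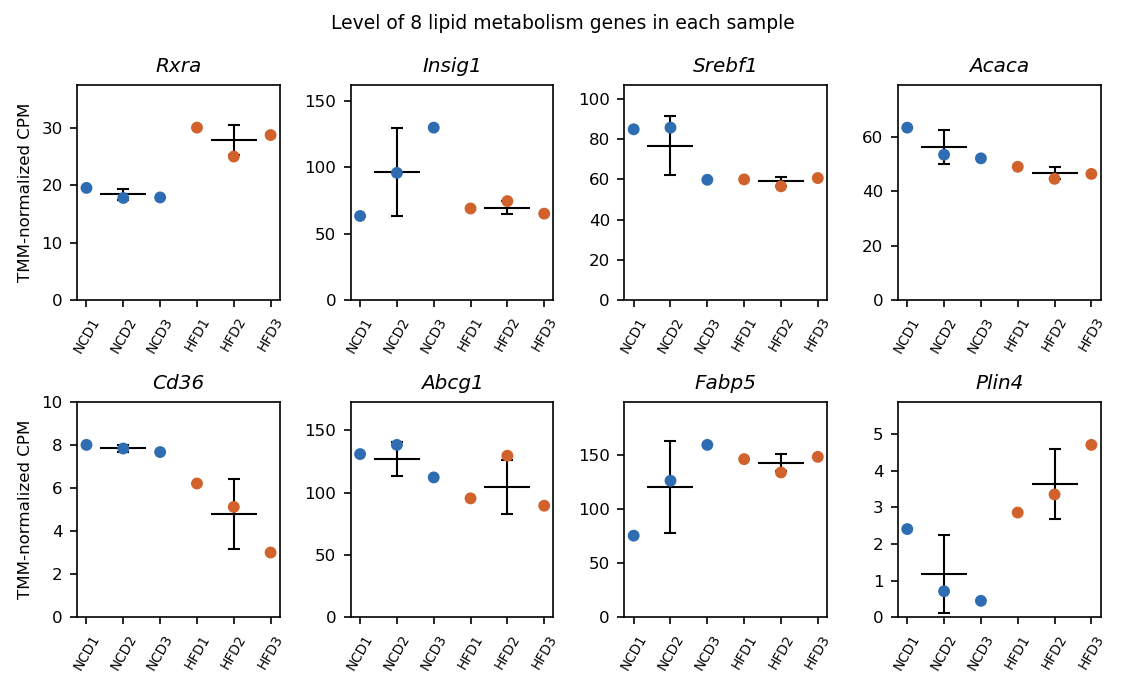
TMM-normalized CPM (y axis, from 0) of 8 genes in each sample (x axis, NCD blue, HFD orange), with black bars for the mean and SD of each diet (n = 3). Rxra is higher in all 3 HFD samples, and Acaca and Cd36 are lower in all 3, whereas NCD1 lies beside the HFD samples for Insig1 and Plin4.

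Other genes of these pathways were counted from 5 lists of 77 genes that are not among the 51. Of these, 74 were tested, 32 had a log2 fold change above 0 and 42 below, and the median was -0.05. An unadjusted p under 0.05 was found for 1, Plin4, which also passed the study's threshold, against 2.3% and 1.9% of all genes, and none had an adjusted p under 0.05. In the 16 other sterol genes the median was -0.16 with 12 below 0, and in the 17 other lipogenic genes tested it was -0.14 with 13 below 0. In the 19 other genes of oxidation and ketone metabolism it was 0.04 with 7 below 0, and in the 17 genes of fatty acid activation, binding, storage and lipolysis it was 0.002 with 8 below 0. In the 5 other nuclear receptors and partners tested it was 0.34 with 2 below 0.

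Plin4 (chr17:56100591-56109803, minus strand), a coat protein of lipid droplets, was higher on HFD, at low levels. It had 2.41, 0.713 and 0.451 CPM on NCD and 2.86, 3.35 and 4.70 CPM on HFD. The value in NCD3 stood at 3 counts, the limit taken for detection, and that in NCD2 was little above it. All HFD samples lay above all NCD samples, and NCD1 lay close to HFD1. The log2 fold change was 1.47 ± 0.58 (SE, adjusted p = 0.999, edgeR). It no longer passed the study's threshold without NCD2 (1.20), NCD3 (1.15) or HFD3 (1.26). Without NCD1 it was 2.55, with the replicate block plus log2 total count 2.69, and with limma on log2(FPKM + 1) 0.42. Its exons overlap those of Hdgfl2 on the opposite strand, which had 3772 counts over the 6 samples against 132 for Plin4. Without strand their reads cannot be told apart.

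Among the 51 genes, exons of Acadvl, Cyp51, Fdft1 and Hadha likewise overlap a protein-coding gene on the opposite strand (Dvl2, Akap9, Ctsb and Garem2). Ctsb had 40566 counts against 9138 for Fdft1, and Akap9 14807 against 6013 for Cyp51. The other way, Dvl2 had 456 against 4418 for Acadvl, and Garem2 639 against 4385 for Hadha. Exons of Fdps overlap the protein-coding Gm43738 on the same strand, which had 0 counts. Rxra, Acaca, Cd36 and Insig1 have no overlapping exon of another annotated gene.

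**Figure D5:**
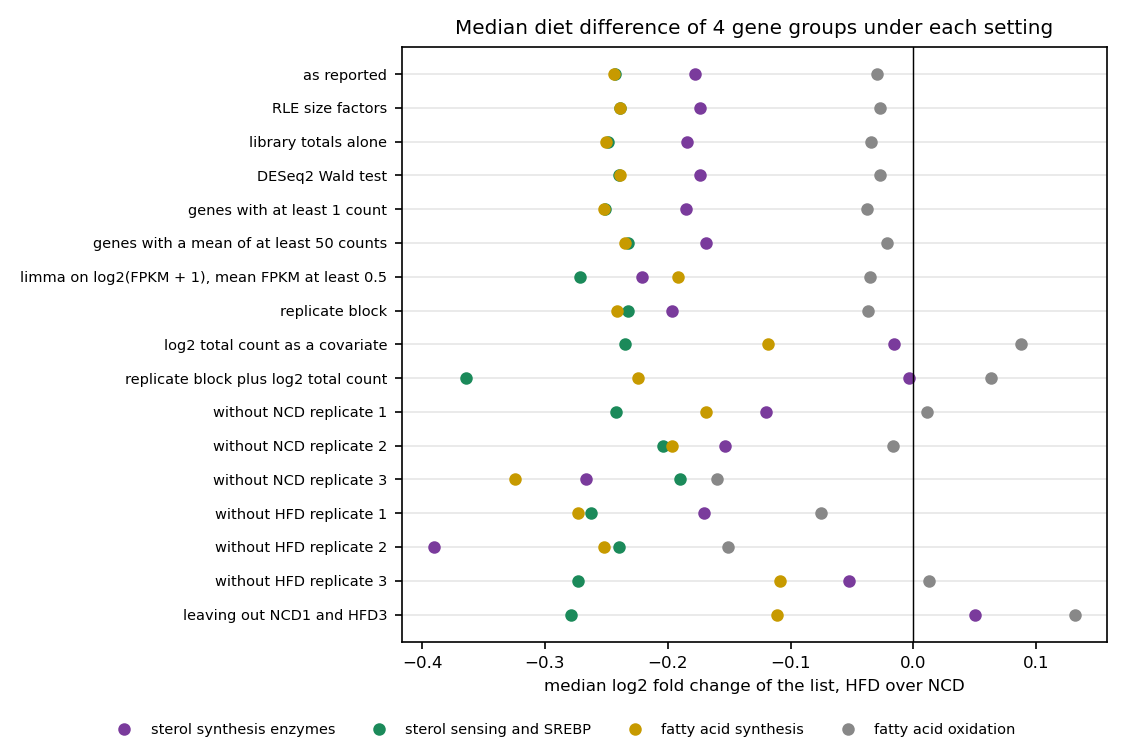
Median log2 fold change, HFD over NCD (x axis), of 4 roles of the lipid genes under the fit as reported and the alternatives named on the y axis. The sterol sensing and SREBP genes stay between -0.36 and -0.19 in all of them, whereas the sterol synthesis enzymes range from -0.39 without HFD replicate 2 to 0.05 without NCD1 and HFD3.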

How the data were processed

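Per the sources, the authors sequenced the libraries on a NovaSeq, compared the reads with a ribosomal database with bowtie2, aligned them with HISAT2 and quantified genes with StringTie and RSEM; the submitters' processing notes name mm10, and versions, annotation release and strand setting are not given in the sources used here. The deposited table holds a read count per gene and sample, not normalized, and an FPKM value that the authors scaled to transcript length and mapped reads. The authors' log2 fold change and their p-value and FDR columns hold their own comparison and were not used.

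Identifiers were matched to GENCODE M21 (GRCm38); 22267 of 22322 had a symbol. Counts were filtered with filterByExpr, which left 14188 genes, normalized by TMM and tested with edgeR's quasi-likelihood test with diet as the only term, adjusted by Benjamini-Hochberg over all genes tested. Log2 CPM used a prior count of 2. The limit taken for detection was 3 counts, 0.188 CPM in the deepest library and 0.58 CPM in the shallowest, which covers counting error only. Alternatives were other size factors and filters, DESeq2, limma on log2 FPKM, a replicate block, total count as a covariate and each library left out. The tests were checked on simulated data.

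The symbols of the members, the gene lists, motifs and tests were chosen with earlier results of these data known. Values in every sample are given for lipid genes with an unadjusted p under 0.05 and for those whose diets did not overlap. They are also given for the highest in FPKM of each role and for Srebf1. Other pathway genes are named with values where the unadjusted p was under 0.05 or the diets did not overlap, together with Rxrg and Rxrb. Some genes of these pathways are not reported here. Promoter windows are from RefSeq (GRCm38.p6). Tests ran in edgeR 4.0.16, DESeq2 1.42.0 and limma 3.58.1 under R 4.3.3, and figures in matplotlib 3.10.9 under Python 3.11.15.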

Additional observations from a re-analysis of the deposited data

How the results depend on the processing

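The count of lipid genes with an adjusted p under 0.05 was 0 under every alternative run, and their median log2 fold change stayed below 0, from -0.24 to -0.02. The count past the study's threshold was 1 as reported, 2 with log2 total count as a covariate and without NCD1 and HFD3 (an alternative chosen after seeing the data), 0 with limma on log2(FPKM + 1) with or without a filter, and 0 to 2 when single libraries were left out. For all genes tested, 270 passed as reported, 427 with every gene of at least 1 count, 179 with a mean of at least 50 counts, and 195 to 982 when single libraries were left out, with 982 without NCD3 and 606 without HFD2. The cause of these shifts was not tested, except that the filters change how many genes enter.

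Without NCD1 and HFD3, the number of genes above 0 went from 14 to 24 of the 50 lipid genes, from 2 to 10 of the 15 sterol enzymes and from 2 to 6 of the 8 oxidation genes. Of the 11 genes whose estimates were recomputed, the sign turned for 3, none of them called. Hadhb was 0.018 with log2 total count, 0.071 with the replicate block plus log2 total count and 0.071 without NCD1 and HFD3. Fabp5 was -0.059 with the block plus log2 total count, -0.038 without NCD1 and HFD3, and -0.012 (without NCD1) to 0.51 (without NCD3) when single libraries were left out. Msmo1 was 0.018 with the block plus log2 total count, 0.093 without NCD1 and HFD3, and -0.39 (without HFD2) to 0.081 (without HFD3) when single libraries were left out.

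Samples with the same replicate number had correlations of -0.01, 0.11 and 0.37 between their deviations from the diet means. The labels link them only by that number, and so few correlations cannot decide whether they were paired. With the replicate block, 376 genes passed the study's threshold, 1 of the lipid genes passed it and 0 had an adjusted p under 0.05, and the median of the lipid genes was -0.17. Only the samples numbered 3 correlated best with their own number in both diets.

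Genes with few counts had less precise estimates. Standard errors on the log2 scale were 0.61, 0.58 and 0.48 for Ppard, Ppara and Lpl, against 0.18 for Hadha, so a change of the size seen in Rxra was not detectable in the former.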

Other observations

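Of the 74 other pathway genes tested, 4 did not overlap between diets in CPM, against 6.47% of all genes tested. Beside Plin4 these were Eci2, an isomerase for unsaturated fatty acids, Lcat, which esterifies cholesterol on lipoproteins, and Hadh, a dehydrogenase of short-chain fatty acid oxidation. Eci2 had 42.5, 45.5 and 50.3 CPM on NCD and 58.4, 58.6 and 57.9 CPM on HFD. Its HFD samples were close together and above all NCD samples, at a log2 fold change of 0.34 ± 0.19 (SE, adjusted p = 0.999, edgeR's quasi-likelihood test). Lcat and Hadh had estimates of 0.29 ± 0.26 and -0.27 ± 0.21. These 3 genes are named because the diets did not overlap, after their values were seen.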
